A study of Mus musculus with 40 samples.

Results

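The data describe thigh skeletal muscle of the 10 LF_LF mice, the animals of this series born to dams on the low fat diet (LF, written first) and fed the same low fat diet after weaning (written second). They were 10 of 40 male C57BL/6J mice (written C57BL\6 in the labels) killed at 9 weeks of age, with 1 Illumina beadchip per animal, and were chosen from the diet fields of the labels alone. The other 30 animals, 10 each in the groups HF_LF, LF_HF and HF_HF (HF, high fat diet), serve here only as a second set of animals in which the spread of a gene can be read. The labels name no transgene and no drug. RNA was extracted from samples of thigh muscle tissue, so that every cell type in the piece contributed RNA. The study's methods name the thigh but no single muscle or part of it. The replicate numbers only name animals, and are written below as animal 1 to animal 10. The labels give cage 8 for animals 1 to 3, cage 4 for animals 4 to 6, cage 6 for animals 7 and 8, and cage 11 for animals 9 and 10. Cages 4 and 11 are also given for LF_HF animals, which ate the high fat diet after weaning. In the study's design the male offspring of each cage were divided between the high and the low fat diet at weaning. The cage number may therefore not name the housing after weaning. Their later weight was 24.7 ± 1.16 g and their blood glucose 206.1 ± 34.7 mg/dl (mean ± SD, n = 10).

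Skeletal muscle fibres differ in the isoforms of the contractile proteins they make. Fast fibres, which dominate the mouse thigh, use fast troponins, parvalbumin and the calcium pump SERCA1 and draw much of their ATP from glycolysis, whereas slow fibres use slow troponins, ventricular-type myosin light chains and SERCA2 and are rich in mitochondria and myoglobin. Between the fibres lie capillaries, fibroblasts, macrophages, nerve and fat cells, and tendon, fat depots and lymph nodes lie against the muscle.

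Each gene was represented by its brightest probe, and its level is the mean log2 of the normalised intensity over the 10 arrays. The brightness of a probe depends on its sequence as well as on the amount of transcript, so that the order below is one of probe intensity and not of transcript number. In the brightest 100 genes, 33 had a second probe above the filter, and it was dimmer by a median of 1.2 on the log2 scale and by 7.32 for the ribosomal protein gene Rps24. Of 16593 named genes, 8783 had a mean above the average median of the arrays (an intensity of 75.7), and these are the genes ranked by spread. The 10 arrays correlated with each other at r between 0.982 and 0.996 over all probes.

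Contractile and energy genes of fast fibres had the brightest probes. Eno3, the muscle enolase, led with a mean log2 intensity of 14.92 ± 0.06 (SD, n = 10), and lay between 28518 and 32250.5 with a median of 31357. Tnni2, the fast inhibitory troponin, followed at 14.88 ± 0.04 and 29215 to 32250.5 (median 30178). Gapdh of glycolysis had 14.86 ± 0.05, and Ckm, the muscle creatine kinase that regenerates ATP from phosphocreatine, 14.85 ± 0.07. Eno3 was the brightest gene in 3 animals and Ckm in 2, and Tnni2, Tnnc2, Gapdh, Aldoa and Mylpf in 1 each, so that 7 genes shared the first place. Because the arrays had been quantile-normalised, the first place carries the same value of 32250.5 in every animal, which limits how far the leading genes can vary.

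The remaining contractile genes among the 30 brightest were Tnnc2 and Tnnt3 (fast troponins), Actn3 (the alpha-actinin of fast fibres), Mylpf and Myl1 (fast myosin light chains), Acta1 (skeletal actin), Tcap and Ttn (titin and its cap) and Myh4, the myosin heavy chain of the fastest fibres. Myh4 had a level of 14.27 ± 0.17 and lay between 16067 and 23328 (median 19705). Acta1 lay between 23328 and 29812 with a median of 25490. Tnnt3 was between 25165 and 27299 in 9 animals and 20602 in animal 2. Of 20 measured genes of the fast sarcomere list, 20 passed the filter, 13 were among the brightest 100 and 0 among the most variable 100. The latter are 100 of 8783 genes, so that 0 of 20 is near the share over all genes. Their median level was 14.1 and their median SD 0.116, beside a median SD of 0.115 over all 8783 genes. Inside the list Actn2, the alpha-actinin also used by slow fibres (SD 0.43), and Myh1, the heavy chain of type IIx fibres (SD 0.35), spread most.

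Calcium handling was represented at the top by Atp2a1, the SERCA1 pump (14.79 ± 0.08, 25815 to 30687), and Pvalb, the calcium buffer parvalbumin (14.73 ± 0.08, 25165 to 29499). Ryr1, the calcium release channel, had rank 50 with 13.78 ± 0.13. Of 17 genes of this list above the filter, 1 had an SD over 0.5, which was Sln (sarcolipin, an inhibitor of the pump).

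Oxidative phosphorylation, the longest list, also had many members among the brightest 100. Of 75 measured oxidative phosphorylation genes 72 passed the filter and 26 were among the brightest 100, led by the ATP synthase subunits Atp5b (14.73 ± 0.07) and Atp5g3 (14.54 ± 0.09) and by Cox6a2, the muscle form of a cytochrome oxidase subunit (14.42 ± 0.07). Of 20 genes of glycolysis and glycogen use above the filter, 8 were in the brightest 100, among them Aldoa (26904 to 32250.5, median 29179), Pfkm, Tpi1 and Ldha. Of 63 ribosomal protein genes above the filter, 17 were in the brightest 100, led by Rplp1, Rpl41 and Rps20. In these 3 lists 0 genes had an SD above 0.5 (0 also without animals 2 and 5). Over all 8783 genes the share was only 1.55%, so that a count of 0 is near it. Within the oxidative list Cox8a and Cox6a1, a cytochrome oxidase subunit and the non-muscle partner of Cox6a2, had SDs of 0.45 and 0.48, which were 0.17 and 0.14 without animals 2 and 5.

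Fth1, the ferritin heavy chain that stores iron, ranked 10 (14.75 ± 0.09), and Hspb6, a small heat shock protein of muscle, ranked 19 with an SD of 0.20. Hspb6 lay between 17140 and 29499 (median 21847), with animal 4 lowest and animal 2 highest. Adssl1 of the purine nucleotide cycle and Pde4dip, a scaffold protein of the sarcomere and centrosome, were also among the 30. Mb, myoglobin, ranked 41 and varied by 2.06-fold, from 9983 in animal 4 to 20602 in animal 1. Hba-a1, an alpha globin gene of red blood cells, ranked 81 with 6415 to 17981 (median 8532), and animal 6 held the highest value. Hbb-bt and Alas2, which red blood cell precursors also use, were likewise highest in animal 6 and lowest in animal 2.

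**Figure D1:**
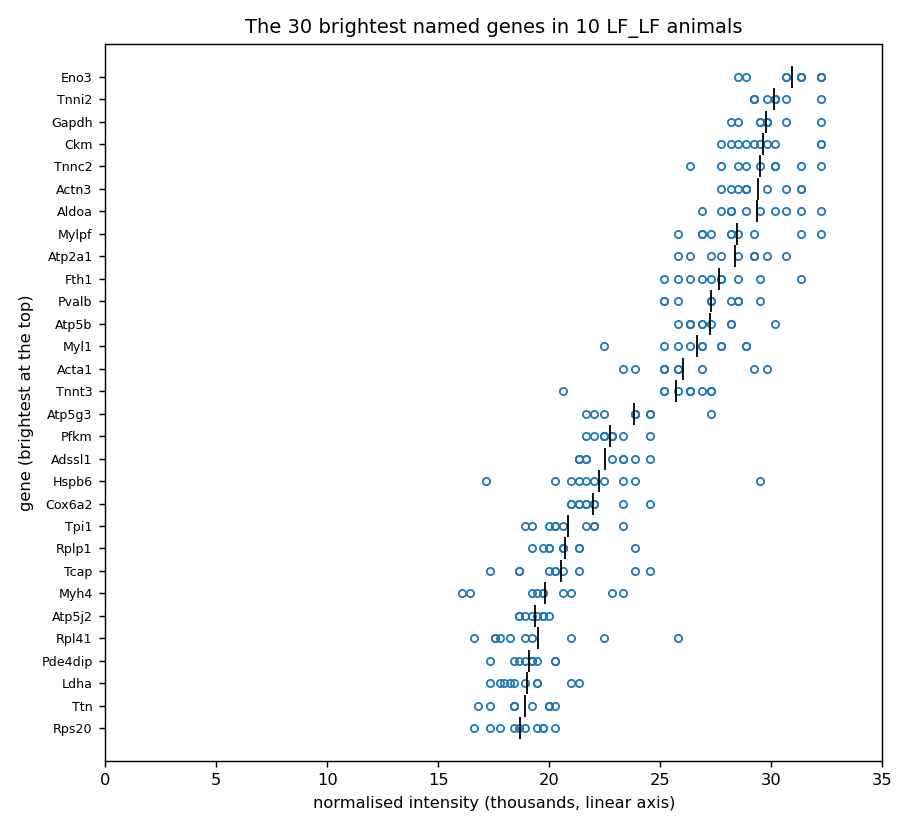
Normalised intensity (in units of 1000, linear axis from 0) of the 30 brightest named genes in each of the 10 LF_LF animals, circles being animals and vertical bars the mean. Eno3 at the top spans 28518 to 32250.5, and animal 2 stands below the others for Tnnt3 at 20602 and above them for Hspb6 at 29499.

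The intensity was concentrated in few genes. The brightest 10 held 4.71% ± 0.0411 of the summed intensity of the named genes (SD over 10 animals), the brightest 100 held 25.2% ± 0.139 and the brightest 1000 held 61.3% ± 0.266. The share of the brightest 100 ran from 25.0% to 25.4% in the 10 animals. The cut at rank 100 fell between Sar1b (12.93) and Rpl31 (12.89), and 94 of the brightest 100 were also among the brightest 100 of the other 30 animals.

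The tissue label could be set against its markers. Of 10 liver markers, 0 passed the filter. Of 7 measured genes of the muscle stem cell list, 4 passed, with a median level of 7.54. Pax7 (5.94) and Myf5 (5.97) of this list lay below the filter, and so did Cd4, Cd8a, Ptprc and Ms4a1 of lymphocytes. Endothelial genes (17 of 19 measured above the filter) had a median level of 8.15 and a median SD of 0.122, and smooth muscle and pericyte genes (13 of 15) 7.41 and 0.135. In whole tissue, fewer cells of a type and less RNA per cell cannot be told apart.

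Most genes differed little between the 10 animals. The SD of log2 intensity had a median of 0.115, 0.073 and 0.219 were its 10th and 90th percentiles, and 3050 genes (34.7%) had an SD below 0.1. Of the 8783 genes, 136 (1.55%) had an SD above 0.5 and 18 an SD above 1. The count of genes with SD above 0.5 in LF_LF was 75 without animal 5 and 295 after background subtraction. The SD was a little lower at the top of the intensity range, with a median of 0.0956 in the brightest 100 genes and 0.11 in ranks 101 to 1000. Of the brightest 100, 0 were among the most variable 100, which is near the share of 100 in 8783 genes. The cut at rank 100 by spread fell between H2ac24 (0.583) and Pparg (0.577).

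**Figure D2:**
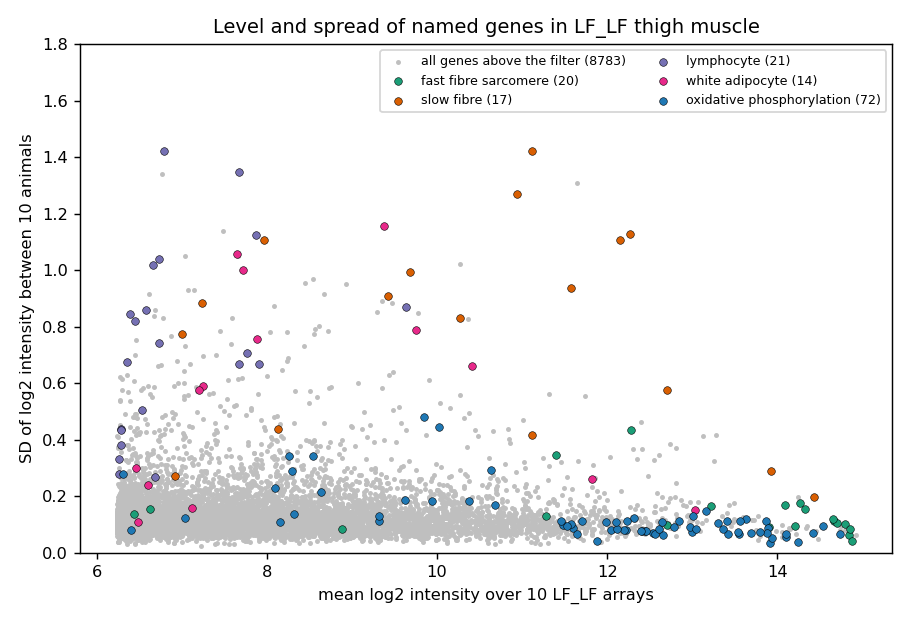
SD of log2 intensity between the 10 LF_LF animals against the mean log2 intensity, 1 point per gene above the filter, with 5 gene lists in colour. The fast fibre sarcomere and oxidative phosphorylation genes lie low on the right, while slow fibre genes reach 1.42 and lymphocyte genes 1.42 at low intensity.

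Among the brightest 1000 genes the lowest SDs were those of Tulp4 (0.030), which ranged from 1598 to 1691 with a median of 1660, Tsnax (0.032), 2299 to 2426, and Psmd12 (0.034), a subunit of the proteasome regulator, 1500.2 to 1609. Atp5j and Atp5j2, subunits of the ATP synthase, Urod of haem synthesis, Eif2b5 and Eif4h of translation initiation, Anapc13 of the anaphase-promoting complex and Cox17, a copper chaperone of cytochrome oxidase, followed. These 10 genes varied by at most 1.08-fold for the first 9 in this order and by 1.10-fold for Cox17. Common reference genes did not all stay as close. Of 11 above the filter, Gapdh had an SD of 0.05, Hprt 0.12 and Actb 0.13, while B2m, the light chain of class I histocompatibility molecules, had 0.56 and ran from 2635 to 8324 with a median of 2901. B2m was highest in animals 5 and 2 (8324 and 5754) and between 2635 and 3188 in the other 8, where its SD was 0.10.

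The most variable genes followed few patterns over the animals. In 77 of the most variable 100 genes the highest pair of values was that of animals 2 and 5, which was so in 11.2% of all 8783 genes and in 11 of the brightest 100. A further 11 belonged to the slow fibre list, and the remaining 12 to neither. Animals 2 and 5 came from different cages (8 and 4), their glucose was 181 and 261 mg/dl and their later weights 24.44 and 26.83 g, and in a principal component analysis of 13230 dim probes over all 40 arrays they had the highest scores of the 10 on the leading component (7.34 and 7.23). That component, with 20.8% of the variance, placed animals 1 and 6 (-5.48 and -4.98) apart from the other 8. Its part in the results was looked at only by leaving out animals 1 and 6 and by adding this split as a term to the fits given below. The summary values under both stayed within the limits of the closing section. Without animals 1 and 6, 94 of the most variable 100 genes were the same.

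**Figure D3:**
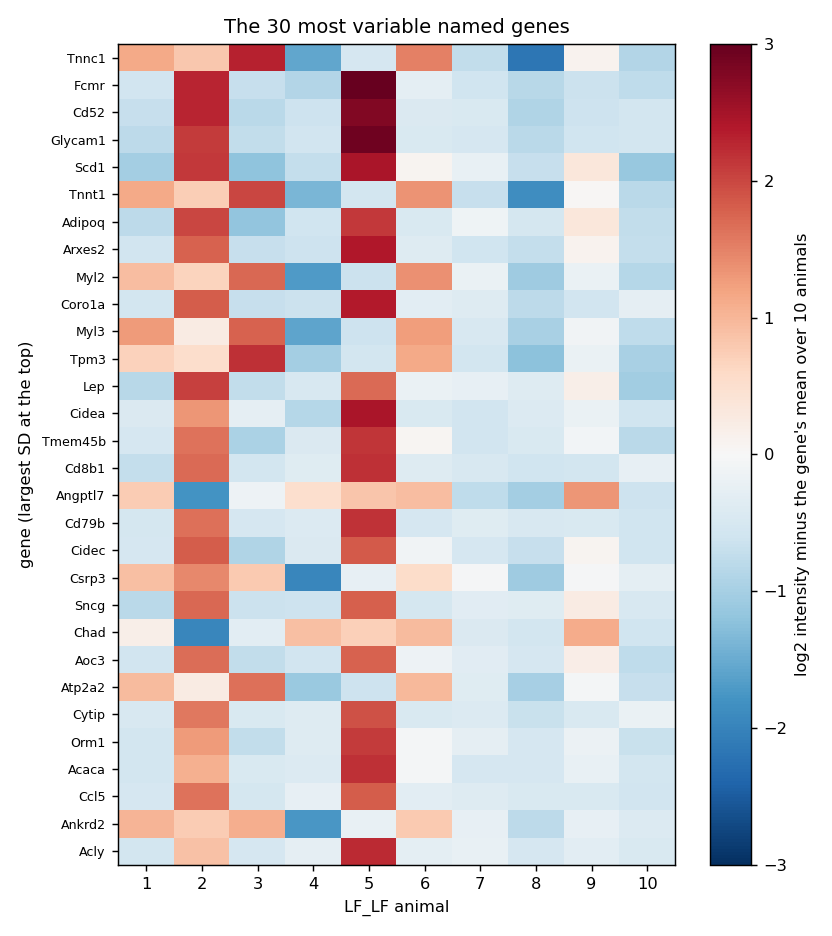
Log2 intensity minus the gene's mean over the 10 animals (colour, red high and blue low) for the 30 most variable named genes, with the largest SD at the top and 1 column per LF_LF animal. Columns 2 and 5 are red for 20 genes such as Fcmr and Adipoq, and the slow fibre genes are red in columns 1, 3 and 6 and blue in columns 4 and 8.

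Slow fibre genes had the widest spread of any muscle gene list. Tnnc1, the slow and cardiac troponin C, had the largest SD of all genes (1.42) and lay between 495.0 in animal 8 and 10927 in animal 3, a 22.1-fold range around a median of 1959. Tnnt1, slow troponin T, ran from 538 to 7938 (median 1677, SD 1.27) with the same animals at both ends. Myl2, the regulatory light chain of slow and cardiac myosin, ran from 1505 in animal 4 to 16251 in animal 3 (median 4286, SD 1.13), and Myl3, the matching essential light chain, from 1511 to 15414 (median 3747, SD 1.11). In all 4 genes animals 1, 3 and 6 held the highest 3 values, and animals 4 and 8 the lowest 2.

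The calcium pump of slow fibres, Atp2a2 (SERCA2), spread 6.84-fold, from 1409 in animal 4 to 9637 in animal 3. Csrp3, a Z-disc protein that senses stretch, ran from 209.9 in animal 4 to 2215 in animal 2 (SD 0.99). Ankrd2, an ankyrin protein of slow fibres, ran from 203.5 in animal 4 to 1463 in animal 3 (SD 0.91). Tnni1 (slow troponin I, SD 0.88), Myoz2 (a Z-disc protein, SD 0.83) and Myh7 (the slow myosin heavy chain, SD 0.77) had their highest value in animal 3 too, although the Myh7 probe was dim (72.7 to 362). Of 17 genes of the list, all above the filter, 12 had an SD over 0.5, beside 1.55% of all genes, and the median SD was 0.882.

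Averaged over the 17 slow fibre genes, the deviation from the gene means was 1.18 on the log2 scale in animal 3, 0.72 in animal 6, 0.71 in animal 1 and 0.50 in animal 2, and -1.15 in animal 4 and -0.84 in animal 8. The 3 animals of cage 8 (1, 2 and 3) were all above 0, whereas cage 4 held the lowest animal (4) and a high one (6), and the part of the cage was not tested for these genes beyond the fit over all genes given below. Genes of fatty acid use had a smaller range, with the highest means in animals 1, 3 and 2 (0.19, 0.17 and 0.15) and the lowest in animals 4 and 8 (-0.24 and -0.16). Lpl, lipoprotein lipase, and Fabp3, which carries fatty acids inside oxidative fibres, were both highest in animal 1 and lowest in animal 4, with 2.38-fold and 2.46-fold ranges. The fast sarcomere list had means between -0.09 and 0.07. Hspb7, a small heat shock protein (SD 0.60), was highest in animal 3 and lowest in animal 4. Without animals 2 and 5, 12 of the slow fibre genes still had an SD over 0.5.

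The stretches just before the transcription start of a few of these genes show a feature the ranking did not use. RefSeq promoters (GRCm38.p6) were matched for 78 of the brightest 100 genes, 74 of the most variable 100 and 7143 of all 8783. The letters TATAA, the core of a TATA box, were searched on the strand of the gene from 40 to 15 bases before the start. A gene was counted if any of its starts had the letters, with a mean of 1.29 starts per gene over all genes. They were found in 7 (8.97%) of the bright genes, 11 (14.9%) of the variable genes and 216 (3.02%) of all genes. Among the 100 genes of lowest SD in the brightest 1000, they were found in 1 (1.28%) of 78 genes with a promoter. With TTATA, the same letters on the other strand, counted as well (TTATAA holds both), the shares were 8.97%, 16.2% and 3.56% in the bright, the variable and all genes. In the variable genes with a promoter the letters stood in 4 of 53 genes highest in animals 2 and 5 and in 7 of 21 of the others. A match is a description of the letters and not a tested site. The 45 bases before the start of 3 slow fibre genes of wide spread, 3 bright genes of fast muscle or the sarcomere, the adipocyte gene Lep and the tendon gene Chad are printed 5′ to 3′ with the searched letters in capitals. The slow fibre genes lie at chr14:31208267-31208311 on the plus strand (Tnnc1), chr7:4515976-4516020 on the minus strand (Tnnt1) and chr19:42035982-42036026 on the plus strand (Ankrd2). The bright genes lie at chr7:19411049-19411093 (Ckm, plus), chr11:67237767-67237811 (Myh4, plus) and chr2:76982548-76982592 (Ttn, minus). Lep lies at chr6:29060176-29060220 and Chad at chr11:94565002-94565046, both on the plus strand.
Tnnc1: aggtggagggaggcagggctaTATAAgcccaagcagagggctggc
Tnnt1: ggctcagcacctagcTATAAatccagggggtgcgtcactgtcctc
Ankrd2: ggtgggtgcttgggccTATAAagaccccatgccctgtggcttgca
Ckm: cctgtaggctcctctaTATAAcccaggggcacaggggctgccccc
Myh4: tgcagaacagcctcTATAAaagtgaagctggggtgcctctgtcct
Ttn: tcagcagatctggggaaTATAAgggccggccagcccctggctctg
Lep: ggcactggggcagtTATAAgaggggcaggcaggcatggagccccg
Chad: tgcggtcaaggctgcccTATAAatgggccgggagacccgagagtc

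The genes highest in animals 2 and 5 included genes of lymphocytes and lymph nodes. Of the most variable 100 of 8783 genes, 14 were in the lymphocyte list and 7 in the white adipocyte list. A further 6 were in the lipogenesis list, and 45 were in none of the 36 lists. Fcmr, the IgM receptor of B cells, measured 539 in animal 2 and 912 in animal 5, and 60.1 to 90.4 (median 69.9) in the other 8, where its mean lay below the filter. Cd52, a surface protein of lymphocytes, measured 995 and 1398 against 109.5 to 149.8 (median 132.8). Glycam1, a ligand for L-selectin made by the high endothelial vessels of lymph nodes, measured 467 and 819.9 against 62.0 to 78.8 (median 72.7). That animals 2 and 5 lay above the other 8 in these 3 genes follows from grouping them by their highest pair. This pair was highest in 11.2% of all 8783 genes. Glycam1, like Fcmr, passed the filter only through animals 2 and 5. Coro1a, a coronin of leukocytes, and Cytip, an interactor of cytohesin in lymphocytes, showed the same order, as did Cd8b1 and Cd3d of T cells, Cd79b of the B cell receptor and the chemokines Ccl5, Cxcl13 and Ccl21a. For these genes too the order follows from the grouping. Cd3d, Cd79b, Ccl5 and Cxcl13 also passed the filter only through animals 2 and 5.

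Of 34 measured genes of the lymphocyte list, 21 passed the filter, but 11 of them, such as Fcmr, Cd79b and Cd3d, passed only through animals 2 and 5. With the filter set on the other 8 animals, a setting chosen after the data had been seen, 10 passed, and in 10 the highest pair was animals 2 and 5, beside 10.4% of all 8704 genes that passed in this way. Over the 34 measured genes with no filter it was so in 30, beside 7.52% of all 16593 genes. The mean deviation of the 10 was 1.26 and 1.67 in animals 2 and 5 and -0.53 to -0.21 in the others, and the summed intensity of the 34 genes ran from 3107 to 12809. Of the most variable 100 genes, 14 had a mean below the filter in the other 8 animals. The defining markers Cd4 (61.7 to 68.7), Cd8a (55.3 to 66.9), Ptprc (65.3 to 90.1) and Ms4a1 (63.3 to 82.1) lay near the array median in all animals, with Ptprc and Ms4a1 highest in animals 5 and 2. Genes of class II antigen presentation went the same way, with Cd74, the invariant chain, at 1832 and 3013 against 447 to 736, and H2-Ab1, a class II beta chain, at 1317 and 2378 against 352 to 619.

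Fat cell genes formed another block of animals 2 and 5. Adipoq, the hormone adiponectin, measured 2661 in animal 2 and 2877 in animal 5, and 292 to 836 (median 452) in the other 8. Lep, leptin, measured 840.0 and 657 against 97.4 to 227, and Cidec, a lipid droplet protein, 743 and 753 against 113.8 to 225. Aoc3, an amine oxidase of fat cells, and Sncg, gamma-synuclein, were 4.66-fold the median of the other 8 in animal 2 and 4.91-fold and 4.94-fold in animal 5. Animal 9 held the third value in each of these 5 genes. Of 14 genes of the white adipocyte list above the filter, 12 had animals 2 and 5 as the highest pair, beside 11.2% of all 8783 genes. The mean deviation of the 14 was 0.94 and 0.97 in these animals and -0.44 to 0.07 in the others. The summed intensity of the list's 18 measured genes ran from 13767 to 25475. Plin1, Retn and Fabp4, which fat cells use strongly, had probes below the filter, and Car3, a carbonic anhydrase shared by fat and muscle, was bright (13.03) with an SD of 0.15.

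Of 13 genes of fatty acid synthesis above the filter, 8 were also highest in animals 2 and 5, beside 11.2% of all 8783 genes. For those described here animal 5 stood above animal 2. With the filter set on the other 8 animals the pair was highest in 7 of 12, beside 10.4% of all 8704 genes. With that filter it was also highest in 21 of 63 ribosomal protein genes (33.3%), 8 of 19 interferon-stimulated genes (42.1%) and 4 of 11 reference genes (36.4%). It was so in 0 of 20 fast sarcomere, 0 of 17 slow fibre and 0 of 70 mitochondrial ribosomal protein genes. Scd1, the stearoyl-CoA desaturase, measured 13956 and 17549 against 1383 to 4083 (median 1975), an SD of 1.31 at a mean level of 11.65. Acly, ATP citrate lyase, was 2.40-fold the median of the other 8 in animal 2 and 6.19-fold in animal 5, with 3094 in animal 5. Acaca, acetyl-CoA carboxylase, was 2.93-fold and 6.37-fold, and Elovl6, a fatty acid elongase, 2.34-fold and 5.71-fold. The mean deviation of the 13 lipogenic genes above the filter was 0.575 in animal 2 and 1.07 in animal 5, and -0.36 to -0.05 in the others. Fasn, the fatty acid synthase, had a dim probe (65.1 to 98.1). Cidea, a lipid droplet protein of brown and white fat, measured 332 and 725 against 73.0 to 114.9. Arxes2, Tmem45b and Orm1, an acute phase protein, showed the order of animal 5 above animal 2 as well.

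Of the keratinocyte genes, Lor and Krt14 were high in animal 5 alone. Lor, loricrin of the skin barrier, measured 249.8 in animal 5 and 59.9 to 89.6 in the other 9, and Krt14, a keratin of basal skin cells whose mean lay just below the filter, 166.2 against 64.0 to 78.6. Lor passed the filter only through animal 5. Of 10 measured keratinocyte genes 2 passed with the filter set on the other 8 animals, and their mean deviation was 0.67 in animal 5 and -0.23 to 0.14 in the others. Macrophage genes were highest in animal 5 (0.62) and next in animals 9, 7 and 2 (0.23, 0.17 and 0.12). The part of lymph node, fat or skin in the piece of tissue of animals 2 and 5 was not tested.

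**Figure D4:**
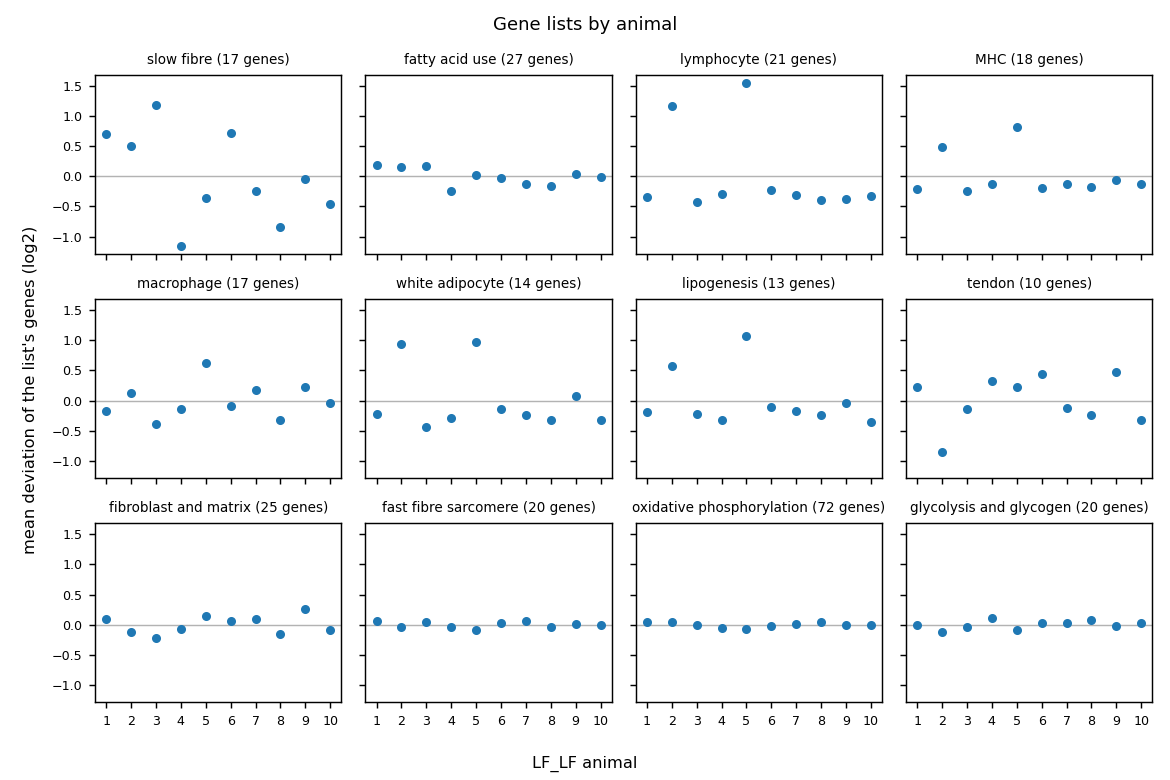
Mean deviation from the gene means (log2) of the genes above the filter in 12 lists, 1 point for each LF_LF animal, with the number of genes in brackets. The means of the lymphocyte (11 of 21 genes admitted through animals 2 and 5), white adipocyte and lipogenesis lists are highest in animals 2 and 5, slow fibre genes run from 1.18 in animal 3 to -1.15 in animal 4, and the fast fibre list stays between -0.09 and 0.07.

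Of the 12 other variable genes, 3 belonged to the tendon list. Angptl7, an angiopoietin-like protein of tendon and cornea, ran from 354.5 in animal 2 to 3070 in animal 9 (median 1432, SD 1.02). Chad, chondroadherin of cartilage and tendon, ran from 90.3 in animal 2 to 753 in animal 9 (median 336), and Ecrg4 from 84.8 in animal 2 to 292 in animal 4. Animal 2 was the lowest in all 3, and also for Fmod, the collagen-binding fibromodulin (141.1, the others 234 to 545). The mean deviation of the 10 tendon genes above the filter was -0.86 in animal 2 and -0.32 to 0.475 in the others. Tnmd, tenomodulin, which marks tendon cells, had a probe below the filter (67.1 to 75.1).

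Cish, an inhibitor of cytokine signalling that growth hormone induces, ran from 514 in animal 1 to 2661 in animal 6 (median 1546, SD 0.83), with 688 to 712 in animals 7 and 8. Ddit4, an inhibitor of mTOR induced by stress and glucocorticoids, ran from 154.2 in animal 7 to 797 in animal 1 (median 387, SD 0.80). Depp1, a target of FoxO factors, ran from 143.6 in animal 7 to 714 in animal 3 (median 417, SD 0.79). For Ddit4 animals 7, 8 and 10 were the lowest 3, and animals 1 and 3 the highest 2, and the same held for Depp1 with animals 3 and 2 highest. S100a8, a neutrophil calcium binding protein, ran from 74.0 to 351 with animals 1 and 5 highest (SD 0.77), and Sln from 87.4 in animal 8 to 456 in animal 5 and 422 in animal 3 (SD 0.83).

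Without animals 2 and 5 the order of spread was led by slow fibre genes. The first 10 genes among the 8 animals were Tnnc1 (SD 1.57), Tnnt1, Myl3, Myl2, Tpm3, Atp2a2, Ankrd2, Tnni1, Csrp3 and Myoz2, and the next 5 were Cish, Ddit4, Angptl7, Depp1 and Myh7. Of the most variable 100 genes 31 stayed in the first 100, and the number of genes with an SD over 0.5 was 33 in place of 136. Genes that entered the first 30 only in this order included Egr1, an immediate early transcription factor (SD 0.60), Atp1b1, a sodium pump subunit (0.60), Pdlim1 (0.57), Rcan1, an inhibitor of calcineurin (0.53), and Ccn2, a growth factor of connective tissue (0.52).

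A second probe gave a reading that the ranking had not used. Of the most variable 100 genes, 18 had a second probe above the filter, and in 15 of them the 2 probes correlated over the 10 animals with r above 0.9, the median r being 0.987. Over all 2250 genes with such a pair the median r was 0.401 and 130 had r above 0.9, as most genes vary little. The second probe had an SD above 0.5 in 11 of the 18, and the other 7 were Slc25a1 (0.24), Tpm3 (0.25), Pygl (0.46), Apoc1 (0.46), Cd209b (0.49), Lyz2 (0.49) and Tmsb10 (0.49). For Cd74 the second probe had an SD of 0.92 beside 0.87, for Csrp3 0.98 beside 0.99, for Atp2a2 0.93 beside 0.94 and for Cd79b 0.79 beside 1.02. The filter used the mean over all 10 arrays, and some second probes passed it only through animals 2 and 5. That of Cd79b measured 198.7 and 273.1 there and 59.9 to 69.6 in the other 8. That of Fcrla measured 180.7 and 226.3 against 58.1 to 67. Both are among the 15. The correlation was lower for Lyz2 (0.884), Slc25a1 (0.806) and Tpm3, slow tropomyosin, whose brightest probe ran from 106.3 in animal 8 to 1142 in animal 3 (SD 1.11), while a second probe of nearly equal brightness had an SD of 0.25 and r of 0.251. The probes of 1 gene share the RNA of the animal, so the agreement speaks to the probes alone.

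The other 30 animals offered the same genes in other mice, with the SD taken within their 3 diet groups. Of the most variable 100 genes of LF_LF, 39 were among the most variable 100 there, and the rank correlation of the SDs across the 8783 genes was 0.552, genes not being independent replicates. The 11 slow fibre genes of the most variable 100 had a median SD of 0.86 in the other animals beside 0.995 in LF_LF, and 11 of 11 exceeded 0.5 there. Tnnc1 had an SD of 1.25, Myl2 0.86 and Csrp3 0.96. The 77 genes highest in animals 2 and 5 had a median SD of 0.273 there beside 0.752, and 15 exceeded 0.5. These genes were chosen by their SD and their highest pair in LF_LF. A lower SD in animals not used for the choice follows in part from it. Among these 77 genes the SD in the other 30 animals was 0.10 for Fcmr and Glycam1 and 0.08 for Cd79b and Cd3d, whose probes lay below the filter in the other 8 LF_LF animals, so that these low values say little about expression. Of lymphocyte genes with brighter probes, Cd74 had 0.38 and Coro1a and Cd52 0.27. Fat cell and lipogenic genes ranged from 0.97 (Scd1), 0.82 (Adipoq), 0.74 (Lep) and 0.66 (Cidec) to 0.33 (Acly), 0.27 (Acaca) and 0.26 (Elovl6 and Cidea). Of the 12 remaining genes, 10 exceeded 0.5, Cish being wider there (0.98) than in LF_LF (0.83). The median SD of all genes was 0.136 in the other animals.

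**Figure D5:**
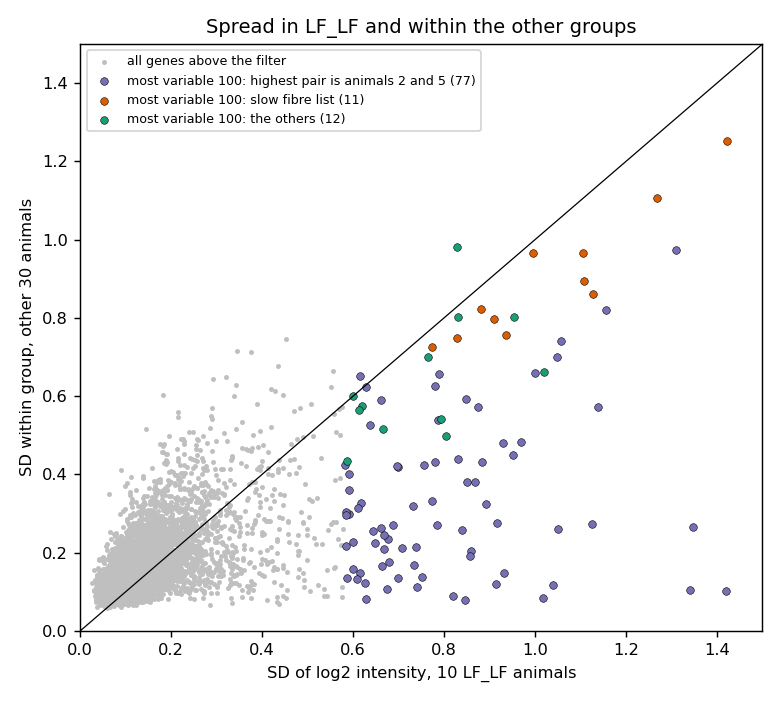
SD of log2 intensity within the groups of the other 30 animals against the SD in the 10 LF_LF animals, 1 point per gene above the filter, with the line of equality. Slow fibre genes lie near the line (Tnnc1 at 1.42 and 1.25), and many genes highest in animals 2 and 5 lie far below it (Fcmr, a dim probe, at 1.42 and 0.10). The coloured genes were chosen by their values in LF_LF, which by itself places genes below the line.

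Cage, weight and glucose were set against every gene above the filter with limma. The fit of the 4 cages called 0 of 8783 genes at an adjusted p below 0.05 (0%), with 644 genes (7.33%) at an unadjusted p below 0.05. The leading named genes were Ppargc1b, a coactivator of mitochondrial genes (adjusted p = 0.244, limma), Slc25a25, a mitochondrial ATP-magnesium carrier (0.244), and Egr1, Depp1 and Txn1, thioredoxin (0.361 each). The mean level of Egr1 was 9.36 in cage 6 and 8.09 to 8.61 in the other cages, and that of Depp1 7.35 in cage 6 and 8.55 to 9.36 in the others. Animals 7 and 8 of cage 6 had the highest 2 values of Egr1 (615 and 701 against 212.4 to 403) and the lowest 2 of Slc25a25 (273 and 317 against 478 to 695). Without animals 2 and 5 the cage fit called 3 genes.

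The slope on the later weight called 0 of 8783 genes (0%), with 604 (6.88%) at an unadjusted p below 0.05 and a lowest adjusted p of 0.683 (limma). The leading genes were Pdk2, a kinase that inhibits pyruvate dehydrogenase, with a slope of -0.14 ± 0.03 per g (SE, n = 10), the muscle ubiquitin ligases Trim63 (-0.19 ± 0.04) and Fbxo32 (-0.19 ± 0.04), Klhl38 (-0.19 ± 0.04) and Actc1, cardiac actin (0.23 ± 0.05), each with an adjusted p of 0.683. For Fbxo32 animal 5, the heaviest, had the lowest value (861) and the other 9 lay between 1157 and 1681.

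The slope on blood glucose called 0 of 8783 genes (0%), with 413 (4.70%) at an unadjusted p below 0.05. Its 5 leading genes, of which Lyve1, Retnla and C1qb belong to the macrophage list, were Lyve1, a hyaluronan receptor also of lymph vessels (slope 0.09 ± 0.01 per 10 mg/dl, adjusted p = 0.0714, limma), Retnla (0.15 ± 0.03, adjusted p = 0.257), Ccl9 (0.10 ± 0.02, adjusted p = 0.257), C1qb of complement (0.09 ± 0.02, adjusted p = 0.562) and F13a1 (0.09 ± 0.02, adjusted p = 0.613). Lyve1 was 269.7 in animal 5, which had the highest glucose of 261 mg/dl, 213.2 in animal 7, 210.7 in animal 9, and 133.1 to 181.2 in the others. Animal 5, which also had the highest mean of the lymphocyte, lipogenesis, keratinocyte and macrophage lists, bears on this slope, and in the slope on blood glucose in LF_LF without it the lowest adjusted p was 0.399 (limma), beside 0.0892 to 0.27 when any other animal was left out. With robust eBayes the same slope called 1 gene (lowest adjusted p = 0.0385, limma).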

How the data were processed

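Total RNA of thigh muscle was extracted with Trizol and RNeasy columns and amplified with the Ambion MessageAmp kit, per the labels. The submitters' processing notes name BeadStudio, and the sources used here give no version of it. Probe values were quantile-normalised by the authors over the 40 muscle arrays and deposited as intensity on a linear scale, from 47.2 to 32250.5. The number of arrays limits the precision. No detection p-value came with them, and low signals were not subtracted to 0, which compresses the spread of dim probes. Of 25697 probes, 23978 had 1 symbol (16593 genes) in the platform annotation and 1719 had none, 0 symbols changed on update through GRCm38.p6 identifiers, and 0 columns of values were left without a sample.

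Values were taken as log2. A gene was its brightest probe by mean over the 10 LF_LF arrays, and passed the filter if this mean exceeded the mean of the arrays' medians. Genes were ranked by mean and by SD, as a description without a test. Cage (moderated F), later weight and glucose were fitted over the 8783 genes with limma 3.58.1 (R 4.3.3; lmFit, eBayes with an intensity trend, two-sided, Benjamini-Hochberg over all genes passed, threshold 0.05), checked on simulated data. The labels file the later weight as a weight at weaning, but it exceeds the weight at 3 weeks in every animal, and it was read as the weight near the end. The genes named are the 30 brightest, the 30 of largest SD, the 10 of lowest SD among the brightest 1000, the 4 brightest and 4 most variable of each list and the 5 of lowest p in each fit, apart from clone names. Others were named after their values were seen. The group, the 36 gene lists and the alternatives were chosen with earlier results of these data known. Whether mice of 1 cage were littermates is not given in the sources used here, and the p-values of the slopes treat them as independent. Python 3.11.15, numpy 2.4.6, pandas 2.3.3 and scipy 1.17.1 were used.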

Additional observations from a re-analysis of the deposited data

Results flagged for a closer look

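Of 69 named genes screened for 1 animal far from the other 9, 5 were picked out by the gap to the nearest animal as a share of the whole range, and chance picks out about 1 in 20. Tnnt3 was low in animal 2 (20602, the next 25165, share 0.711). Rplp1 was high in animal 5 (23889, the next 21330.3, share 0.520), and so was Acly (3094, the next 1198, share 0.488). Tnni2 was high in animal 3 (32250.5, the next 30687, share 0.503), and Cox17 in animal 10 (4136, the next 3952, share 0.490).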

How the results depend on the processing

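The summary results moved beyond 1.5 times, or beyond 1 SD, in 9 values, and in 1 more when 1 animal was left out. Without animals 2 and 5 the most variable 100 genes shared 31 with the full ranking and 33 genes had an SD over 0.5, the cage fit calling 3 genes. Ranking by the median absolute deviation shared 39 of the most variable 100. Background subtraction gave 295 genes with an SD over 0.5 and 29.75% for the share of summed intensity in the brightest 100 genes (25.19% as reported), an offset of 50 gave 89 genes, and the mean of a gene's probes a share of 26.65%. Robust eBayes called 1 gene for glucose. Leaving out 1 animal at a time kept 99 to 100 of the brightest and 78 to 99 of the most variable 100 genes, and gave 75 to 155 genes with an SD over 0.5 (75 without animal 5), a median SD of 0.109 to 0.117, a share of 25.17% to 25.21% and 0 calls in each fit. The other 62 summary values under these alternatives stayed within their limits. Of the single gene values 44 moved, and 18 when 1 animal was left out. The SD moved for 21 of the 30 named variable genes without animals 2 and 5 and for 9 with background subtraction, and 8 named bright genes had a mean that moved by over 1 SD. Within cages (6 degrees of freedom) 91 of the most variable 100 were the same. A ranking by intensity has no within-cage form. No paired analysis was possible because no groups were compared. With 10 animals in 4 cages, small slopes and cage differences could go undetected, and dim probes near the array median carry compressed differences.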

Other observations

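The brightest probes of the clock output gene Dbp and the ubiquitin protease gene Usp2 were close between the 10 animals. Their SDs were 0.09 and 0.08, beside 0.41 and 0.21 within the groups of the other 30 animals. A dimmer second probe of Usp2 had an SD of 0.18 in LF_LF and an r of -0.016 with the first. The circadian clock list had a median SD of 0.148 in LF_LF, with a highest of 0.33, and a median of 0.259 in the others. The immediate early list had a median SD of 0.20 in LF_LF and 0.22 in the others, and its members Dusp1 (0.44), Zfp36 (0.46) and Egr1 (0.53), picked after their values were seen, had 0.26, 0.28 and 0.22 there. The brightest probes of Mbp and Pmp22, myelin genes of nerve, were highest in animal 8, with SDs of 0.45 and 0.26. Their dimmer second probes were highest in animal 1 (110.2 and 200.5), with 107.6 and 174.6 in animal 8. None of these differences between animal sets was tested.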
